A study of Mus musculus with 54 samples.

Results

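The subject is how the response of irradiated mouse hematopoietic stem cells (HSC) to dmPGE2 at 24 h differed from the response at 1 h. It was measured for every gene as a difference of differences, (dmPGE2 minus vehicle at 24 h) minus (dmPGE2 minus vehicle at 1 h), in 32 of the 54 libraries of the series. The mice were Fgd5 reporter animals on a C57BL/6 background, whose HSC carry the green protein ZsGreen, and all 4 groups were irradiated with 8.53 Gy, a dose that kills 50% of the animals. Mice received dmPGE2, which is prostaglandin E2 with methyl groups that slow its breakdown, or its ethanol vehicle under the skin 30 min before irradiation. Marrow was taken 1 h or 24 h later, and HSC were sorted by surface markers (SLAM and LSK with a wide gate) and by ZsGreen. The groups were irradiated dmPGE2 mice at 1 h, irradiated vehicle mice at 1 h, irradiated dmPGE2 mice at 24 h and irradiated vehicle mice at 24 h. Each group had 8 libraries, of 4 females and 4 males by the labels. The column names of 1 h carry no sex, so sex was no term in the reported fit. The labels do not give 1 unequivocal dmPGE2 dose, so none is printed here, and no age is used here. Different mice were sampled at each time, so a change over time is a change between groups of animals.

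Prostaglandin E2 binds the receptors EP1 to EP4, of which EP2 and EP4 raise cyclic AMP (cAMP), and cAMP acts through protein kinase A on the transcription factor CREB, which switches on immediate early genes within minutes and through them its own feedback inhibitors. Radiation breaks DNA and stabilises p53, which switches on genes of cell cycle arrest and apoptosis, while NF-kB switches on adhesion molecules, chemokines and its own inhibitors. HSC are mostly quiescent and keep the genes of DNA replication and mitosis low.

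Total counts ran from 17371333 to 26217041 per library over the 4 groups. The lowest totals were those of dmPGE2 libraries 5, 6 and 7 of 24 h (19770654, 19395977 and 17371333). In limma voom their sample quality weights were 0.241, 0.503 and 0.395. The labelled cell type was checked against the genes of its gate. Fgd5, whose locus carries the reporter, had 42.3 to 121 CPM (counts scaled to the library's total with TMM factors) in the 32 libraries. All 9 gate genes, among them Kit, Ly6a and Slamf1, had a median above 1 CPM in both groups of 24 h. This level does not tell HSC from other cells. Of 14 neutrophil markers, 1 had a median below 1 CPM in dmPGE2 mice and 6 in vehicle mice at 24 h. Libraries 5, 6 and 7 of the dmPGE2 mice at 24 h, all male, stood apart from the other 5 libraries of their group and from all vehicle libraries of 24 h, and library 3 of the same group stood apart on another axis of a principal component analysis. Libraries 5, 6 and 7 carry 3 different tags in their column names, each shared with vehicle libraries. Counts of genes are therefore also given without libraries 5 to 7. For many but not all named genes, the values of these 3 libraries, or a fit without them, are given as well.

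The genes called at 1 h and at 24 h overlapped only in part, and where they did, opposite directions outnumbered equal ones. With edgeR's quasi-likelihood test and Benjamini-Hochberg adjustment, 14061 genes were tested and a gene was called at an adjusted p below 0.05. At 1 h, 1929 genes (13.7% of those tested) differed between dmPGE2 and vehicle, and at 24 h, 3037 genes (21.6%). Calls at both times numbered 484, which is 25.1% of the 1 h calls and 15.9% of the 24 h calls. Of these 484, 204 had the same direction at both times and 280 had opposite directions. Tested directly, the response at 24 h differed from that at 1 h for 3313 genes (23.6%), higher for 1668 (11.9%) and lower for 1645 (11.7%), and by at least 2-fold for 683 of the higher and 305 of the lower genes. Over all 14061 genes the 2 log2 responses, which share no library, had a Pearson correlation of 0.09 and a Spearman correlation of -0.09, given as a description since genes are not independent replicates. Without libraries 5 to 7 the difference was called for 16.3% of the genes, 1103 higher (7.84%) and 1192 lower (8.48%). In that fit 2435 genes were called at 1 h and 981 at 24 h. Of the 24 h calls, 528 were higher and 453 lower, against 1622 (11.5%) and 1415 (10.1%) with all libraries.

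**Figure D1:**
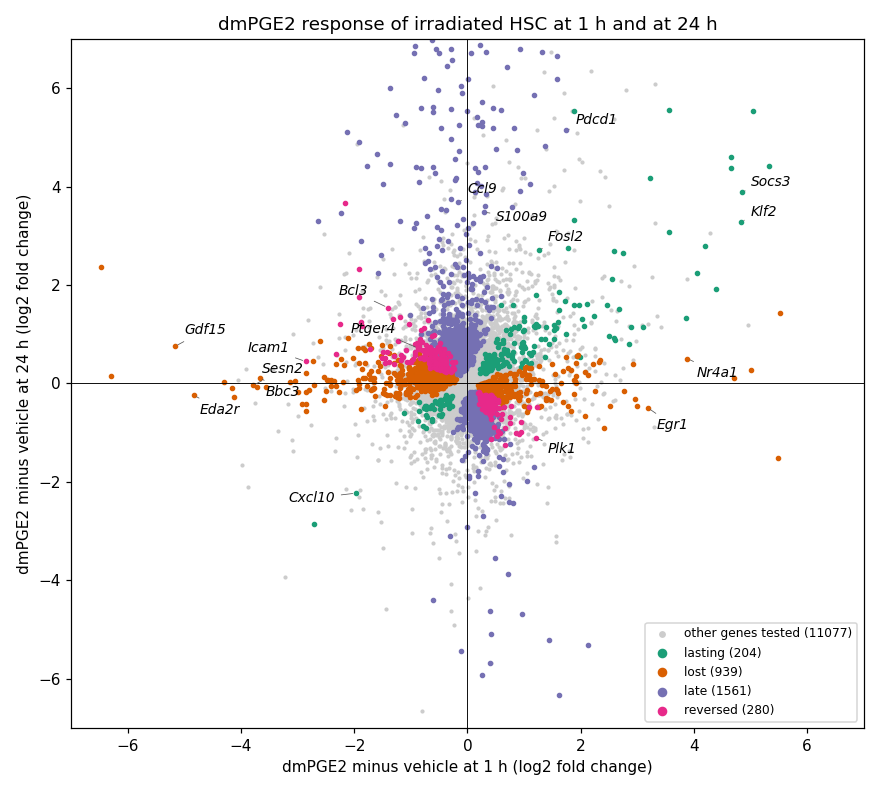
Log2 fold change of dmPGE2 against vehicle at 1 h (horizontal axis) and at 24 h (vertical axis), 1 point per gene, coloured by response class; 14 genes lie outside the axes. Lost genes (939) lie along the horizontal axis, late genes (1561) along the vertical axis, and the 204 lasting and 280 reversed genes lie off both axes.

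The calls sort the genes into 4 kinds of response. A lasting response was called at both times in the same direction and was found for 159 genes that were higher with dmPGE2 (1.13% of the genes tested) and 45 that were lower (0.320%). A lost response was called at 1 h, not called at 24 h, and had a called difference back toward 0; it was found for 367 genes higher at 1 h (2.61%) and 572 lower at 1 h (4.07%). A late response was not called at 1 h, called at 24 h, and had a called difference in that direction; it was found for 725 higher genes (5.16%) and 836 lower genes (5.95%). A reversed response was called at both times in opposite directions, for 142 genes higher at 1 h (1.01%) and 138 genes lower at 1 h (0.981%). The remaining genes with a call comprised 506 called at 1 h alone and 992 called at 24 h alone without a called difference, and 508 with a called difference alone. A gene that was not called at one of the times is not shown to be without a response there.

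In the fit without libraries 5 to 7 there were 85 lasting genes, of which 61 were among the 204, 1221 lost genes (727 of the 939), 493 late genes (441 of the 1561) and 130 reversed genes (86 of the 280). Of the 204 lasting genes, 51 became lost genes in that fit, and 92 were called at 1 h alone without a called difference. The 3 libraries also lay apart in the mean levels of lasting higher and late genes. The mean of the 159 lasting higher genes was 5.51 to 6.32 log2 CPM in libraries 5 to 7, 4.80 to 5.01 in the other 5 dmPGE2 libraries and 4.38 to 4.56 in the vehicle libraries of 24 h. The mean of the 725 late higher genes was 4.98 to 5.11 log2 CPM in libraries 5 to 7, 4.24 to 4.47 in the other 5 dmPGE2 libraries and 3.55 to 3.70 in the vehicle libraries of 24 h. For both sets all 8 dmPGE2 libraries lay above all 8 vehicle libraries, and libraries 5 to 7 lay farthest above. For the 836 late lower genes the same means were 5.53 to 5.65 in libraries 5 to 7, 5.97 to 6.11 in the other 5 and 6.40 to 6.54 in the vehicle libraries. The genes of these sets were chosen by calls in these same libraries, so the separation of their means is a description. Without libraries 5 to 7, 48 of the 159, 201 of the 725 and 240 of the 836 kept their class and direction.

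Splitting the difference by arm shows which mice changed between 1 h and 24 h. For late higher genes the median log2 change over time was 0.15 in dmPGE2 mice and -0.84 in vehicle mice, and 547 of the 725 were called lower at 24 h than at 1 h in vehicle mice. Late lower genes had a median change of -0.06 in dmPGE2 mice and 0.59 in vehicle mice, with 634 of 836 called higher at 24 h in vehicle mice. Over all 14061 genes, 22.8% were called higher and 26.5% lower at 24 h than at 1 h in vehicle mice. The vehicle levels also enter the difference that defines these classes, so the counts are a description. Lost lower genes changed in both arms, with a median of 0.25 in dmPGE2 mice and -0.50 in vehicle mice. Lost higher genes had a median of -0.16 in dmPGE2 mice and 0.43 in vehicle mice. Of these 367, 246 were called higher at 24 h in vehicle mice and 144 lower in dmPGE2 mice. Among the 9071 genes with no call in any of the 3 tests that define the classes, these numbers were 1511 and 1451. Of the 138 genes that reversed after being lower at 1 h, 120 were lower at 24 h than at 1 h in vehicle mice, and of the 142 that reversed after being higher at 1 h, 133 were higher at 24 h in vehicle mice. Over all genes tested the median change over time was -0.02 in dmPGE2 mice and -0.06 in vehicle mice. The column names carry tags that may be dates and that dmPGE2 and vehicle libraries share, but no tag occurs at both times. What these tags mark, and any date of sorting or library preparation, cannot be told apart from the change over time within an arm.

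**Figure D2:**
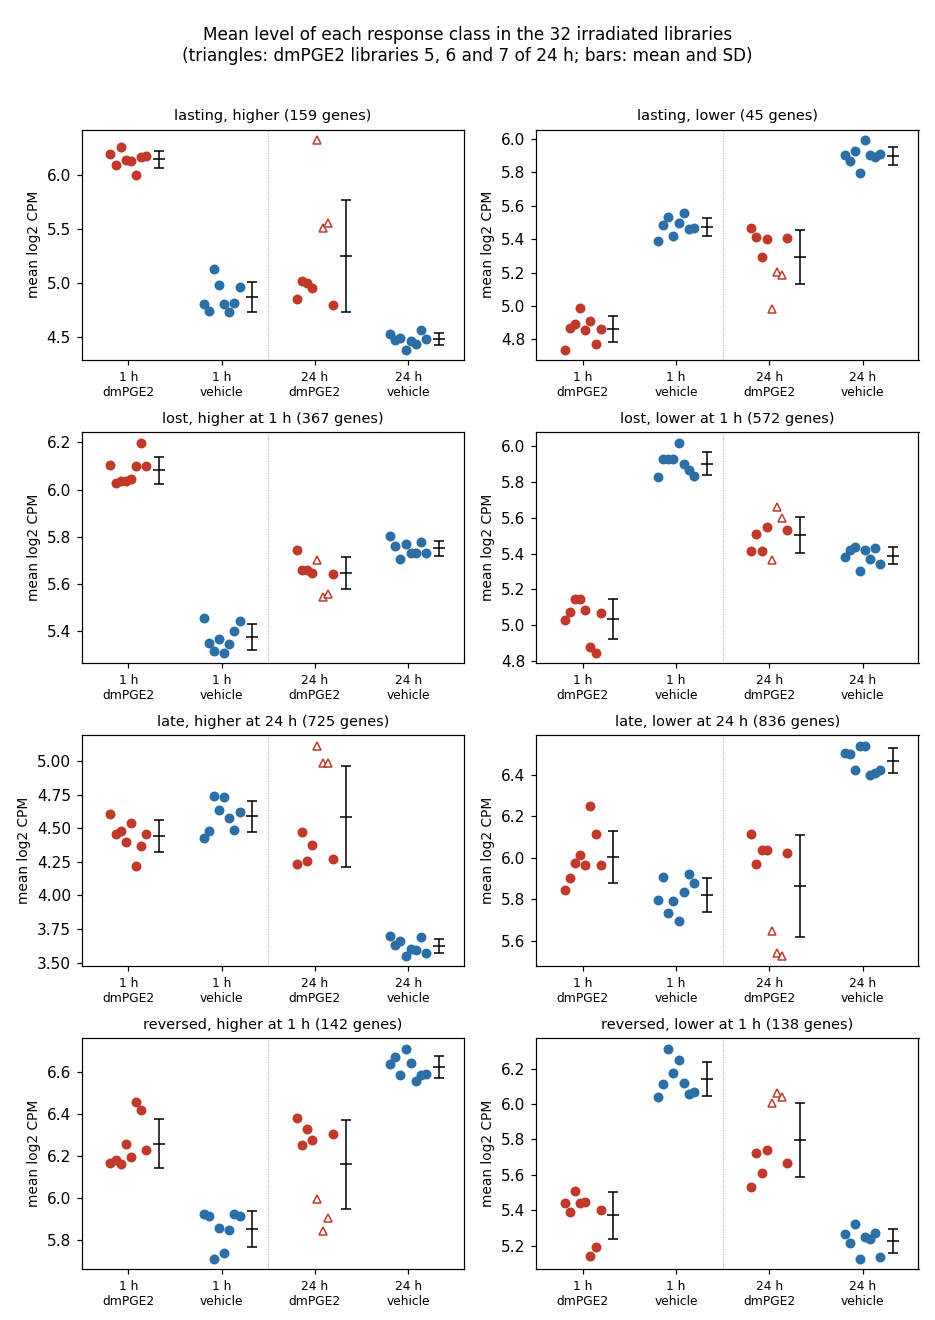
Mean log2 CPM over the genes of each response class (vertical axis) in each of the 32 irradiated libraries, dmPGE2 beside vehicle at 1 h and at 24 h; bars are mean and SD over 8 libraries, and triangles are dmPGE2 libraries 5 to 7 of 24 h. The classes were chosen from these values, so the separation of the groups is a description; the vehicle libraries move between the times in the late and reversed panels, and the triangles lie farthest from vehicle in the lasting, late and reversed panels.

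The lost lower class held most of the p53 response. Gdf15, which encodes a stress cytokine, had 14.2 to 98.6 CPM (median 27.3) in dmPGE2 libraries and 830.4 to 1523 CPM (median 1219) in vehicle libraries at 1 h. At 24 h it had 17.9 to 383 CPM (median 150.2) in dmPGE2 libraries and 76.5 to 119 CPM (median 104) in vehicle libraries. At 1 h every dmPGE2 library lay below every vehicle library, while at 24 h 5 of the 8 dmPGE2 libraries lay above the vehicle range, 1 below it and 2 inside it. The log2 fold change was -5.17 (SE 0.42, adjusted p = 7.71e-12) at 1 h and 0.75 (SE 0.35, adjusted p = 0.125) at 24 h, and the difference of 5.92 (SE 0.53, adjusted p = 2.90e-10) was the highest of all named genes. It came from both arms, since Gdf15 fell by 3.58 on the log2 scale between the times with vehicle and rose by 2.34 with dmPGE2. Without dmPGE2 library 5 of 24 h the 24 h fold change was 0.93 and was called, which makes Gdf15 a reversed gene in that fit, with a difference of 6.09.

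Phlda3 and Bbc3 were lost lower genes as well. Phlda3, which encodes an inhibitor of Akt, had 10.8 to 47.9 CPM (median 16.8) in dmPGE2 libraries and 276 to 494 CPM (median 402) in vehicle libraries at 1 h. The 24 h levels were 181 to 539 CPM (median 412) in dmPGE2 libraries and 329.6 to 458 CPM (median 378) in vehicle libraries. The groups were fully apart at 1 h and overlapped at 24 h, where 6 of 8 dmPGE2 libraries lay inside the vehicle range. Its difference was 4.34 (SE 0.29, adjusted p = 2.42e-14), with a change over time of 4.28 in dmPGE2 mice and -0.06 in vehicle mice. Bbc3, the gene of the pro-apoptotic protein Puma, had 11.4 to 41.8 CPM (median 21.2) in dmPGE2 libraries and 235 to 393 CPM (median 291) in vehicle libraries at 1 h. Its values at 24 h were 94.5 to 176 CPM (median 127) in dmPGE2 libraries and 102 to 134 CPM (median 116) in vehicle libraries. Again no libraries overlapped at 1 h and 4 of 8 dmPGE2 libraries lay inside the vehicle range at 24 h. The difference for Bbc3 was 3.78 (SE 0.27, adjusted p = 1.23e-13), with a change over time of 2.46 in dmPGE2 mice and -1.32 in vehicle mice. The 24 h fold changes were small beside their errors: 0.04 (SE 0.19, adjusted p = 0.923) for Phlda3 and 0.12 (SE 0.18, adjusted p = 0.705) for Bbc3.

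Other p53 targets with the largest differences were Eda2r, a receptor of the TNF receptor family (4.59, SE 0.41), Fam212b (4.05, SE 0.48), Ddit4l, an inhibitor of mTOR signalling (3.85, SE 0.41), and Sesn2, which also restrains mTOR (3.75, SE 0.21). Trp53inp1, which promotes p53 activity and autophagy, had a difference of 3.65 (SE 0.24) and Pmaip1, the gene of Noxa, which promotes apoptosis, 3.06 (SE 0.46). Each of them, and Gdf15, Phlda3 and Bbc3, was in the lost class also without libraries 5 to 7. Without dmPGE2 library 4 of 1 h the difference was 4.71 for Fam212b and 3.70 for Pmaip1.

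Of the 38 p53 targets tested, 26 were lower and 1 higher with dmPGE2 at 1 h (7.08% lower and 6.64% higher among all genes), and 5 were lower and 2 higher at 24 h (10.1% lower and 11.5% higher among all genes). The response at 24 h was higher than at 1 h for 25 targets and lower for 1 (11.9% higher and 11.7% lower among all genes). Classed by calls, 23 were lost, 3 lasting lower, 2 late higher and 1 late lower. The median log2 fold change of the list was -0.97 at 1 h and -0.05 at 24 h, beside 0.02 and 0.04 over all genes tested (median at 24 h without libraries 5 to 7: -0.07, with 23 higher and 2 lower differences). In dmPGE2 mice the targets rose over time by a median of 1.86, against 0.11 in vehicle mice. Per library the mean of the list was 4.72 to 5.48 log2 CPM in dmPGE2 mice and 6.48 to 6.72 in vehicle mice at 1 h, and 6.22 to 7.05 in dmPGE2 mice and 6.75 to 7.02 in vehicle mice at 24 h. The groups did not overlap at 1 h and did at 24 h.

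The 3 targets that were lower at both times moved against this course. Psrc1, which encodes a protein of the mitotic spindle, had 58.0 to 122 CPM (median 111) in dmPGE2 libraries and 145 to 173 CPM (median 151) in vehicle libraries at 24 h, with no overlap between the groups. Its log2 fold changes were -0.51 (SE 0.17) at 1 h and -0.65 (SE 0.16) at 24 h. The 1 h call for Psrc1 was lost without dmPGE2 library 1 or 2 or vehicle library 3 or 8 of 1 h, with differences of -0.23 to -0.16 there. Rps27l, a paralog of the ribosomal protein gene Rps27, had -0.53 (SE 0.10) and -0.40 (SE 0.10), and Tap1, a subunit of the transporter that loads peptides on MHC class I, -0.37 (SE 0.08) and -0.33 (SE 0.08). Their differences were not called (adjusted p = 0.713, 0.532 and 0.837). Tap1 without libraries 5 to 7 was still lasting, with -0.39 at 24 h, while the 24 h fold changes of Psrc1 (-0.41) and Rps27l (-0.22) were no longer called.

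**Figure D3:**
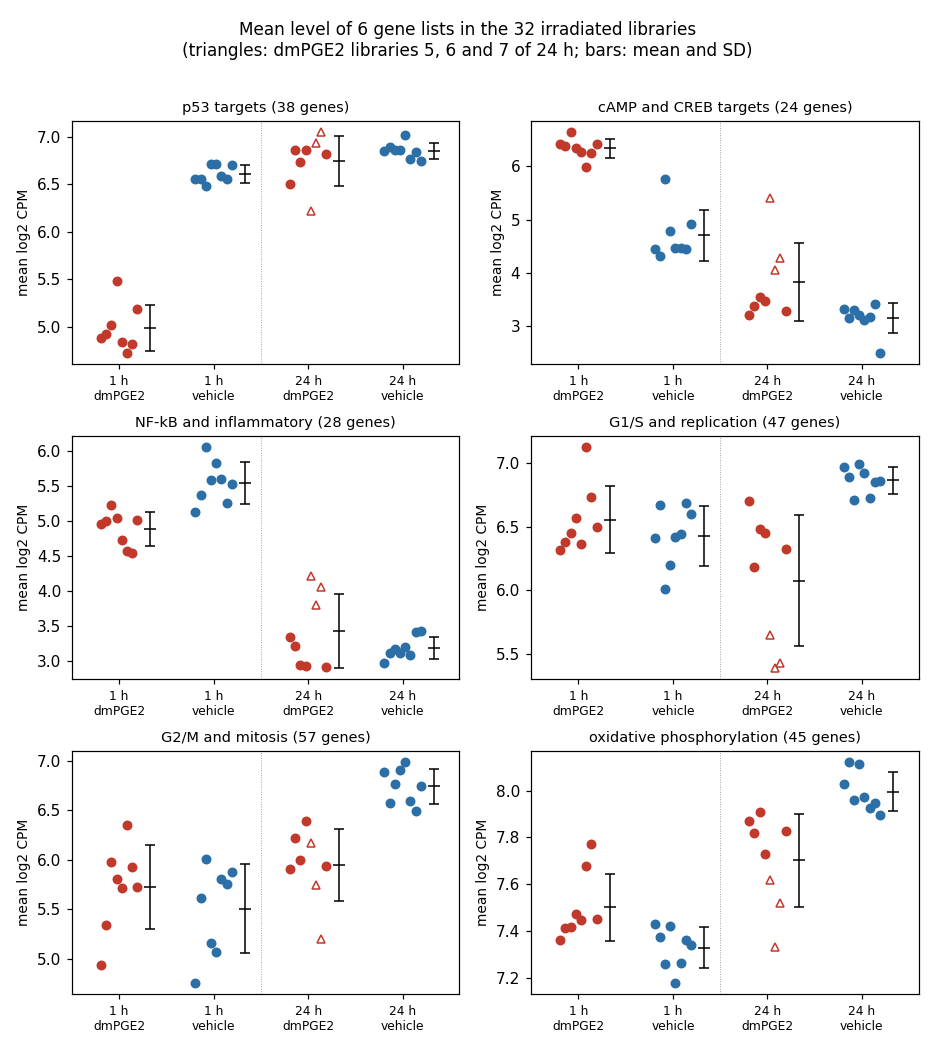
Mean log2 CPM of 6 gene lists (vertical axis) in each of the 32 irradiated libraries, dmPGE2 beside vehicle at 1 h and at 24 h; bars are mean and SD over 8 libraries, and triangles are dmPGE2 libraries 5 to 7 of 24 h. The p53 list is separate at 1 h (4.72 to 5.48 with dmPGE2 and 6.48 to 6.72 with vehicle) and overlaps at 24 h, while both cell cycle lists overlap at 1 h and are separate at 24 h.

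Nr4a1 and Egr1 had the largest losses among the genes that dmPGE2 raised at 1 h. Nr4a1, an orphan nuclear receptor of the immediate early response, had 441 to 993 CPM (median 659) in dmPGE2 libraries and 16.3 to 186 CPM (median 29.4) in vehicle libraries at 1 h. At 24 h the levels were 14.2 to 51.8 CPM (median 20.2) in dmPGE2 libraries and 6.07 to 25.0 CPM (median 15.9) in vehicle libraries. The groups were apart at 1 h, and at 24 h 7 of 8 dmPGE2 libraries lay inside the vehicle range. Its fold change at 24 h was 0.50 (SE 0.38, adjusted p = 0.364). The difference was -3.38 (SE 0.53, adjusted p = 2.22e-05), and -4.17 without vehicle library 3 of 1 h, which held the highest Nr4a1 level of its group. Egr1, a zinc finger transcription factor of the immediate early response, had 369 to 1471 CPM (median 820) in dmPGE2 libraries and 31.1 to 222 CPM (median 87.95) in vehicle libraries at 1 h. The levels at 24 h were 82.2 to 161 CPM (median 131) in dmPGE2 libraries and 121 to 239 CPM (median 166) in vehicle libraries, where 3 of 8 dmPGE2 libraries lay below the vehicle range and none above it. Those 3 were libraries 5 to 7, at 82.2 to 102.3 CPM, beside 129.8 to 161 CPM in the other 5. The fold change of Egr1 at 24 h was -0.50 (SE 0.29, adjusted p = 0.237), and its difference was -3.68 (SE 0.43, adjusted p = 7.37e-08), the lowest of all named genes.

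Among the 367 lost higher genes a rise over time in vehicle mice was called more often (246) than a fall in dmPGE2 mice (144). For the 9071 genes without a call the same numbers were 1511 and 1451. Il21r, the receptor of interleukin 21, had 194 to 390 CPM (median 351) in dmPGE2 libraries and 30.0 to 47.7 CPM (median 42.3) in vehicle libraries at 1 h. Its 24 h range was 50.8 to 297 CPM (median 224) in dmPGE2 libraries and 225 to 302 CPM (median 269.7) in vehicle libraries. At 24 h 4 of 8 dmPGE2 libraries lay below the vehicle range. Il21r was at 50.8 to 220.6 CPM in libraries 5 to 7 and 221.2 to 297.1 CPM in the other 5 of the dmPGE2 mice at 24 h. Its level changed by -0.58 on the log2 scale between the times in dmPGE2 mice and by 2.70 in vehicle mice, and the difference was -3.28 (SE 0.26, adjusted p = 2.11e-12). Hes1, a repressor downstream of Notch, had a difference of -2.92 (SE 0.28, adjusted p = 2.81e-10), with a change of -1.24 in dmPGE2 mice and 1.68 in vehicle mice. Thbd, which encodes thrombomodulin, had 9.69 to 17.2 CPM (median 12.4) in dmPGE2 libraries and 0.981 to 3.85 CPM (median 2.19) in vehicle libraries at 1 h. At 24 h it had 7.75 to 17.5 CPM (median 13.2) in dmPGE2 libraries and 10.9 to 25.9 CPM (median 17.1) in vehicle libraries. For Thbd the vehicle libraries of 1 h lay below all libraries of the other 3 groups, and the difference was -2.97 (SE 0.31, adjusted p = 4.05e-09). Gata2, a transcription factor that HSC need, was higher at 1 h by 0.81 (SE 0.12, adjusted p = 2.45e-06) and had -0.01 (SE 0.12, adjusted p = 0.971) at 24 h, with a difference of -0.82 (SE 0.17, adjusted p = 4.76e-04). In dmPGE2 mice at 24 h Gata2 was at 396.1 to 509.5 CPM in libraries 5 to 7 and 257.9 to 305.5 CPM in the other 5. Adamts1, a secreted metalloprotease, was the weakest of the 5 lost genes with the largest 1 h effect: its difference of -2.53 (SE 0.91, adjusted p = 0.0403) was called in 16 of 32 fits that left out 1 library, with values from -2.92 to -1.99 over the 32 fits.

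Socs3, a feedback inhibitor of cytokine signalling, had the strongest lasting response. It had 136 to 728 CPM (median 383) in dmPGE2 libraries and 8.15 to 21.2 CPM (median 13.1) in vehicle libraries at 1 h. The 24 h levels were 22.9 to 656 CPM (median 66.8) in dmPGE2 libraries and 4.64 to 14.2 CPM (median 10.4) in vehicle libraries. All 8 dmPGE2 libraries lay above all 8 vehicle libraries at both times, and at 24 h the 3 highest were among libraries 5 to 7, with 126 to 656 CPM in libraries 5 to 7 and 22.9 to 80.3 CPM in the other 5. The log2 fold change was 4.85 (SE 0.56, adjusted p = 3.74e-08) at 1 h and 3.89 (SE 0.54, adjusted p = 8.09e-06) at 24 h, with a difference of -0.96 (SE 0.69, adjusted p = 0.330). Without libraries 5 to 7 the 24 h fold change was 2.29 (adjusted p = 4.11e-04) and the difference -2.56 (adjusted p = 8.92e-04), so the response was still called at 24 h and was then smaller than at 1 h. Leaving out library 5 alone gave a difference of -1.89, which was called.

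Fosl2, an AP-1 transcription factor gene, was 1 of 3 lasting genes whose response was called larger at 24 h. It had 310 to 454 CPM (median 362) in dmPGE2 libraries and 57.4 to 399 CPM (median 125) in vehicle libraries at 1 h. Its values at 24 h were 21.5 to 276 CPM (median 41.3) in dmPGE2 libraries and 9.66 to 17.4 CPM (median 11.8) in vehicle libraries, so that the groups overlapped at 1 h and not at 24 h. The difference was 1.45 (SE 0.54, adjusted p = 0.0477); it was 0.12 without libraries 5 to 7, and it was called in 12 of 32 fits that left out 1 library (0.84 to 1.59). Nupr1, a chromatin protein induced by stress, had 35.4 to 97.7 CPM (median 54.1) in dmPGE2 libraries and 15.98 to 27.4 CPM (median 19.3) in vehicle libraries at 24 h, with no overlap. Its log2 fold changes were 0.80 (SE 0.22) at 1 h and 1.58 (SE 0.22) at 24 h, and its difference of 0.79 was not called (adjusted p = 0.0558), but was called in 9 of 32 fits that left out 1 library (0.83 to 0.91). Hk2, which encodes a hexokinase of glycolysis, had 2.07 (SE 0.22) at 1 h and 1.16 (SE 0.22) at 24 h, a difference of -0.90 (SE 0.31, adjusted p = 0.0284) that was -0.80 and not called without vehicle library 7 of 24 h. Slc3a2, the heavy chain of several amino acid transporters, had 0.83 and 0.45 (SE 0.08 at both times). Fosl2, Nupr1, Hk2, Slc3a2 and Socs3 were lasting genes also without libraries 5 to 7 and without library 3 in addition. S1pr1, the receptor for sphingosine 1-phosphate that guides cells out of tissues, was lasting without libraries 5 to 7 (0.63 at 24 h) and lost when library 3 was left out too.

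Many of the other named lasting higher genes depended on libraries 5 to 7. Klf2, a transcription factor of quiescence in lymphocytes, had 92.1 to 489.7 CPM (median 343) in dmPGE2 libraries and 7.12 to 16.6 CPM (median 10.02) in vehicle libraries at 1 h. At 24 h the levels were 2.48 to 219.5 CPM (median 5.61) in dmPGE2 libraries and 2.67 to 4.78 CPM (median 3.33) in vehicle libraries. At 24 h Klf2 was at 11.6 to 219.5 CPM in libraries 5 to 7 and 2.48 to 6.08 CPM in the other 5 of the dmPGE2 mice, and 6 of 8 dmPGE2 libraries lay above the vehicle range, which is narrow. Its 24 h fold change was 3.29 (SE 0.68, adjusted p = 8.57e-04), 1.29 without library 5, and 0.26 (adjusted p = 0.737) without libraries 5 to 7, where its difference was -4.58 (-3.55 without library 5 alone) and Klf2 was a lost gene. Rasd1 (3.08, and 0.88 without the 3 libraries), Plaur, the urokinase receptor (1.32 and 0.51), Fos (1.92 and 0.32), Rgs2 (0.87 and -0.04), Sik1 (1.12 and 0.20) and the phosphodiesterase gene Pde4d (0.56 and 0.26) were lost genes in that fit too. Leaving out library 5 alone gave 24 h fold changes of 2.01 for Rasd1 and 0.68 for Plaur, which were called, and of 0.91 for Fos, 0.23 for Rgs2, 0.57 for Sik1 and 0.33 for Pde4d, which were not. For Pde4d the 24 h call was lost in 8 of 32 fits that left out 1 library, at fold changes of 0.33 to 0.58. The difference for Rasd1 without library 5 was -1.55. P2ry10, a receptor gene of lymphoid cells, had 2.70 at 24 h, 1.495 without library 5 and 0.74 without the 3 libraries, where neither its 24 h response nor its difference was called. Clec4e, a receptor that senses microbial glycolipids, was still lasting without them (2.12 and 0.99). Over the whole class, 135 of 159 lasting higher genes had no called difference, 21 had a smaller response at 24 h and 3 a larger one.

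Dusp1, a phosphatase that ends MAP kinase signalling, is the textbook case of such feedback. A promoter was at hand for 10662 of the 14061 genes tested. Of the genes named by rule that had one, only Dusp1 held a full cAMP response element in the window searched. Dusp1 had 1000 to 3097 CPM (median 2282) in dmPGE2 libraries and 189.8 to 506 CPM (median 250.2) in vehicle libraries at 1 h. The levels at 24 h were 42.3 to 431 CPM (median 46.9) in dmPGE2 libraries and 37.7 to 58.0 CPM (median 49.5) in vehicle libraries, where 3 of 8 dmPGE2 libraries lay above the vehicle range. The fold change was 2.90 (SE 0.40, adjusted p = 1.15e-06) at 1 h and 1.15 (SE 0.38, adjusted p = 0.0272) at 24 h, and -0.10 at 24 h without libraries 5 to 7. Leaving out library 5 alone gave 0.31 at 24 h and a difference of -2.59. The 160 bases before its start (RefSeq, build GRCm38.p6, chr17:26508473-26508632, minus strand, chromosome 17) are shown because of the element TGACGTCA, in capitals.
Dusp1: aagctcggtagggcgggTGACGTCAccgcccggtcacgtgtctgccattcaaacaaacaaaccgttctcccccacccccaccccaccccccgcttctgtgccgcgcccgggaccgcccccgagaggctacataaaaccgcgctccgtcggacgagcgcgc
This element, searched on both strands in 250 bases before to 50 after each start, was in 2.92% of the 13545 promoters of the genes tested, in 3.77% of those of lasting higher genes and in 2.61% of those of lost higher genes.

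The lists of these pathways hold both fates. Of 34 immediate early genes, 15 were higher and 4 lower at 1 h, and 11 were higher at 24 h; 7 were lasting higher, 7 lost higher and 4 lost lower, and the difference was lower for 10 and higher for 5. The median log2 fold change of this list was 0.94 at 1 h and 0.34 at 24 h. Of 24 cAMP and CREB targets, 14 were higher and 1 lower at 1 h, 11 were higher and 1 lower at 24 h, and 9 were lasting; the medians were 1.41 at 1 h and 0.91 at 24 h. In the fit without libraries 5 to 7, 1 cAMP target was higher and 1 lower at 24 h, the 24 h median was 0.19, and the difference was lower for 13 of the 24, against 7 with all libraries. For immediate early genes the same fit gave 3 higher genes at 24 h and a median of 0.15. Over all 14061 genes, 6.64% were higher and 7.08% lower at 1 h. At 24 h 1622 were higher and 1415 lower, and 528 and 453 in the fit without libraries 5 to 7. The difference was higher for 11.9% and lower for 11.7% of all genes, and for 7.84% and 8.48% in that fit.

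Lasting lower genes were fewer and their effects were smaller. Cxcl10, a chemokine induced by interferon, had 5.85 to 36.0 CPM (median 17.1) in dmPGE2 libraries and 40.7 to 143 CPM (median 67.05) in vehicle libraries at 1 h. Its 24 h range was 0 to 25.1 CPM (median 3.09) in dmPGE2 libraries and 3.02 to 91.6 CPM (median 35.3) in vehicle libraries. No libraries overlapped at 1 h, 4 of 8 dmPGE2 libraries lay below the vehicle range at 24 h, and 1 dmPGE2 library of 24 h had no Cxcl10 read. The fold change was -1.97 (SE 0.64, adjusted p = 0.0342) at 1 h and -2.23 (SE 0.66, adjusted p = 0.0135) at 24 h, and -3.47 at 24 h without libraries 5 to 7. The 1 h call was lost without dmPGE2 library 1, 4, 5, 6 or 7 or vehicle library 5 or 6 of 1 h, with differences of -0.42 to -0.24. Sh3bgrl2 had -0.78 (SE 0.21) at 1 h and -0.86 (SE 0.20) at 24 h. Its 18.4 to 44 CPM (median 31.9) in dmPGE2 libraries at 24 h did not overlap the 46.5 to 78.3 CPM (median 58.9) in vehicle libraries, and its level rose over time in both arms (2.18 with dmPGE2 and 2.26 with vehicle on the log2 scale). Orc6, a subunit of the origin recognition complex, had -0.47 and -0.66, and Tcf15, a transcription factor of quiescent HSC in mice, -0.49 and -0.53. These 4 genes were lasting also without libraries 5 to 7; Orc6 and Tcf15 were not when library 3 was left out too. The other named members, Spdl1, Crip2, Tgtp1, Slbp and Rnf168, had 24 h fold changes from -0.91 to -0.31, none of which was called without libraries 5 to 7. Between 0 and 15 of 32 fits that left out 1 library changed the class of each of these 5 genes. Tgtp1 has a near-identical neighbouring copy, and how reads shared by such copies were counted is not given in the sources used here.

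Of the NF-kB targets, 4 were lower with dmPGE2 at 1 h and higher at 24 h. Icam1, an adhesion molecule, had 101.1 to 171 CPM (median 121) in dmPGE2 libraries and 764 to 1026 CPM (median 894) in vehicle libraries at 1 h. At 24 h it had 144 to 258 CPM (median 160) in dmPGE2 libraries and 108 to 151 CPM (median 135) in vehicle libraries. At 1 h all dmPGE2 libraries lay below the vehicle range, and at 24 h 5 of 8 lay above it. Its fold change was -2.86 (SE 0.12, adjusted p = 9.24e-21) at 1 h and 0.45 (SE 0.12, adjusted p = 0.00562) at 24 h, a difference of 3.31 (SE 0.17, adjusted p = 6.45e-18). Over time Icam1 changed by 0.54 in dmPGE2 mice and by -2.76 in vehicle mice. When libraries 5 to 7 were left out the 24 h fold change was 0.22 and not called, so that Icam1 was then lost. Bcl3, which modulates NF-kB in the nucleus, had 39.5 to 142 CPM (median 52.6) in dmPGE2 libraries and 145 to 228 CPM (median 163) in vehicle libraries at 1 h. The 24 h levels were 26.4 to 107 CPM (median 67.2) in dmPGE2 libraries and 19.9 to 29.4 CPM (median 22.5) in vehicle libraries, where 7 of 8 dmPGE2 libraries lay above the vehicle range. It was reversed with all libraries (-1.41, SE 0.22, at 1 h and 1.54, SE 0.22, at 24 h, difference 2.95 (SE 0.31, adjusted p = 5.00e-09)) and without libraries 5 to 7 (1.202 at 24 h) and library 3. Its level in dmPGE2 mice differed by 0.04 on the log2 scale between the times, against -2.91 in vehicle mice.

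Tnfaip3, which encodes the NF-kB inhibitor A20, had -1.49 at 1 h and 0.63 at 24 h (SE 0.20 and 0.20), and the cytokine gene Csf1 -0.80 and 0.69 (SE 0.24 at both times). Their 24 h calls were lost without libraries 5 to 7 (0.26 and -0.07), and also singly without dmPGE2 library 5 or 7 or vehicle library 2 of 24 h for Tnfaip3 (0.46 to 0.58) and without dmPGE2 library 5, 6 or 7 or vehicle library 4 of 24 h for Csf1 (0.44 to 0.59). Of the 28 NF-kB and inflammatory genes tested, 16 were lower and 1 higher at 1 h, 7 were higher and 1 lower at 24 h, and the difference was higher for 14 and lower for none. By class, 10 were lost lower, 4 reversed and 1 lasting lower. Without libraries 5 to 7 the difference was higher for 13 and lower for 1, and 1 gene was higher and 1 lower at 24 h. The medians were -0.88 at 1 h, 0.28 at 24 h and -0.07 at 24 h without the 3 libraries. Over all 14061 genes, 6.64% were higher and 7.08% lower at 1 h, and the difference was higher for 11.9% and lower for 11.7%. At 24 h 1622 of all genes were higher and 1415 lower, and 528 and 453 without the 3 libraries. The anti-apoptotic gene Birc3, also an NF-kB target, was lost, with a difference of 2.52 (SE 0.31, adjusted p = 1.68e-07); it was reversed without dmPGE2 library 3 of 24 h, at a difference of 2.64.

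Ptger4, the gene of the PGE2 receptor EP4, reversed as well. It had 68.8 to 94.8 CPM (median 80.8) in dmPGE2 libraries and 113 to 197 CPM (median 142) in vehicle libraries at 1 h. Its values at 24 h were 52.6 to 141 CPM (median 68.03) in dmPGE2 libraries and 36.6 to 59.4 CPM (median 50.4) in vehicle libraries. The groups did not overlap at 1 h, and 6 of 8 dmPGE2 libraries lay above the vehicle range at 24 h. The fold change was -0.87 (SE 0.15, adjusted p = 3.12e-05) at 1 h and 0.71 (SE 0.15, adjusted p = 6.85e-04) at 24 h, with a difference of 1.58 (SE 0.21, adjusted p = 5.71e-07). Over time the level changed by -0.02 in dmPGE2 mice and by -1.60 in vehicle mice. It was 0.43 at 24 h without libraries 5 to 7 and still reversed, and without library 3 in addition it was lost. Among the 18 genes of PGE2 receptors and prostanoid metabolism, the difference was higher for 2, Ptger4 and the PGE2 synthase gene Ptges (1.26, SE 0.32), and lower for 2, beside 11.9% higher and 11.7% lower over all genes. For Ptger3, the gene of the receptor EP3, 5 of 8 dmPGE2 libraries lay above the vehicle range at 1 h and all 8 below it at 24 h. For Ptger1, 2 lay above and 1 below the vehicle range at 24 h, and for Ptger2, 1 lay above it. At 24 h 4 of the 18 were higher and 5 lower, and at 1 h 1 was lower. Leaving out libraries 5 to 7 gave 2 higher and 2 lower differences again, but 1 higher and 1 lower gene at 24 h. Over all 14061 genes, 1622 were higher and 1415 lower at 24 h, and 528 and 453 in that fit. The 24 h call for Ptges was lost without dmPGE2 library 7 of 24 h (0.57).

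Other genes lower at 1 h and higher at 24 h with large effects were Hif3a, of the hypoxia inducible factor family (-2.25 and 1.202, difference 3.45), and the proteoglycan gene Sdc4 (-1.88 and 1.25, difference 3.13). The ephrin gene Efnb2 (-1.31 and 1.31, difference 2.62) and Itgb3, an integrin chain of HSC and platelets (-1.18 and 1.34, difference 2.53), followed the same course. Their 24 h fold changes without libraries 5 to 7 were 0.63, 0.05, 0.95 and 0.35, and all 4 were lost genes. Btg1, an antiproliferative gene (-0.71 and 0.62), and the stress response genes Ddit3 (-0.76 and 0.68) and Dnajb9 (-1.08 and 0.68) did likewise. For Ddit3 the 24 h call was also lost without library 7 alone (0.48).

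In the other direction, Plk1, a kinase that drives mitosis, was higher with dmPGE2 at 1 h and lower at 24 h. It had 19.9 to 71.8 CPM (median 43.6) in dmPGE2 libraries and 10.4 to 25.7 CPM (median 18.2) in vehicle libraries at 1 h. At 24 h the levels were 27.5 to 95.7 CPM (median 68.1) in dmPGE2 libraries and 98.6 to 194 CPM (median 152) in vehicle libraries. At 1 h 6 of 8 dmPGE2 libraries lay above the vehicle range, and at 24 h all 8 lay below it. The fold change was 1.21 (SE 0.24, adjusted p = 3.75e-04) at 1 h and -1.11 (SE 0.24, adjusted p = 0.00104) at 24 h, with a difference of -2.32 (SE 0.34, adjusted p = 5.14e-06), or -2.15 without libraries 5 to 7. Plk1 rose between the times in both arms, by 0.69 on the log2 scale in dmPGE2 mice and by 3.01 in vehicle mice. Cdc45, part of the helicase that opens DNA for replication, had 0.48 (SE 0.16) and -0.88 (SE 0.16), with a 1 h call that was lost in 8 of 32 fits that left out 1 library (differences -1.36 to -1.25). Gp5, a platelet glycoprotein gene, had 0.92 and -1.02, the RNA-binding protein gene Hnrnpdl 0.86 and -1.02, Fhl4 0.95 and -0.99, and Enkd1 0.75 and -0.80. Hnrnpdl shares its family with close paralogs, and how shared reads were counted is not given in the sources used here. Plk1, Cdc45 and Hnrnpdl were reversed also without libraries 5 to 7. In fits that left out 1 library of 1 h, the 1 h call was lost for Hnrnpdl without dmPGE2 library 6 or 8 or vehicle library 2 or 3 (differences -1.80 to -1.71), for Fhl4 without dmPGE2 library 8 or vehicle library 3 or 5 (-1.86 to -1.85), and for Enkd1 without dmPGE2 library 6 or 7 (-1.47 to -1.45).

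**Figure D4:**
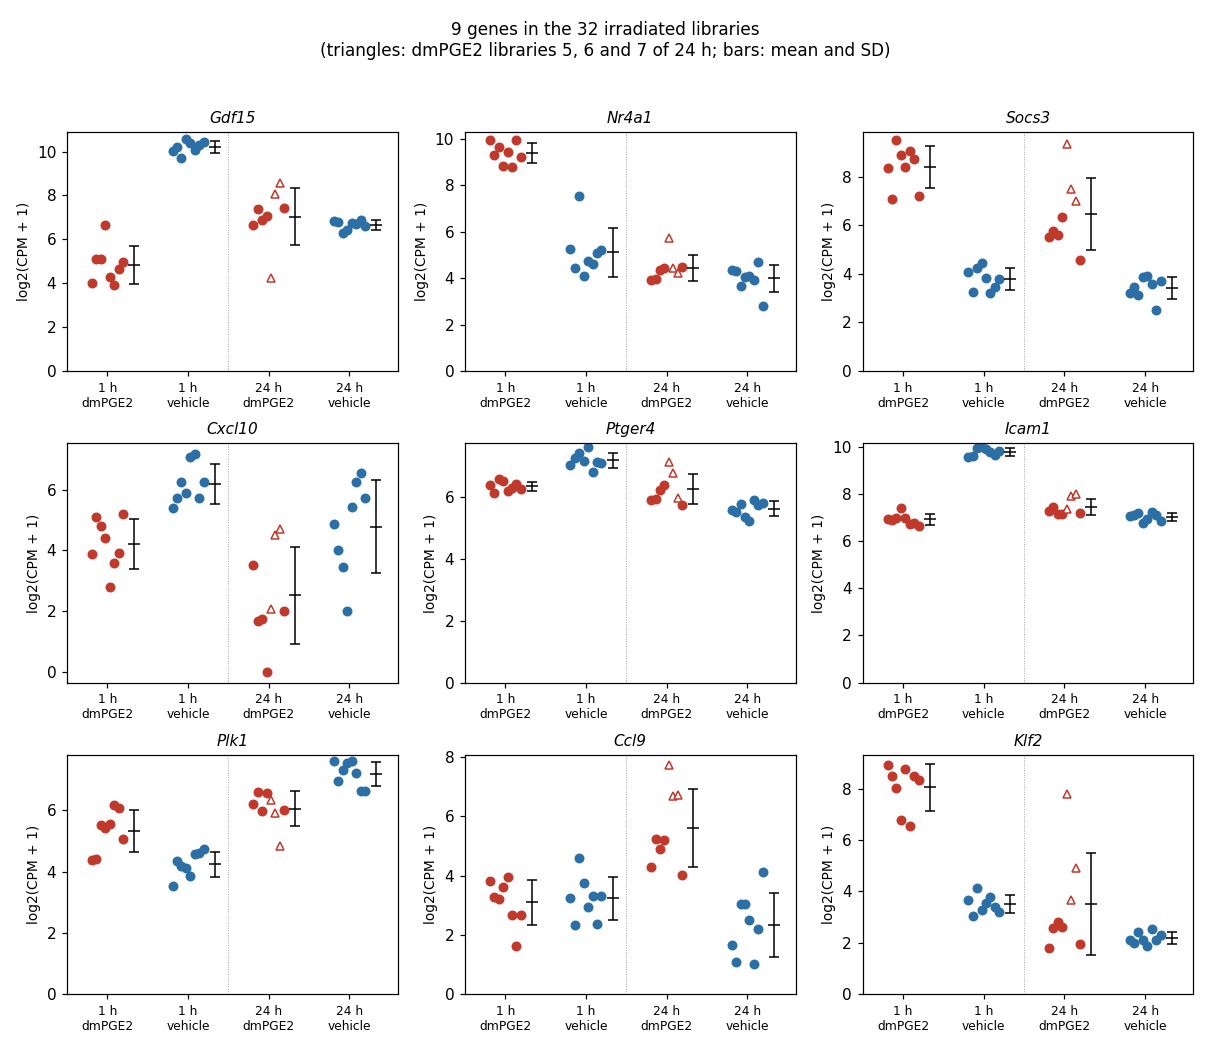
Log2(CPM + 1) of 9 genes (vertical axis) in each of the 32 irradiated libraries, dmPGE2 beside vehicle at 1 h and at 24 h; bars are mean and SD over 8 libraries, and triangles are dmPGE2 libraries 5 to 7 of 24 h. Gdf15 and Nr4a1 are lost, Socs3 and Cxcl10 lasting, Ptger4 and Icam1 reversed after being lower, Plk1 reversed after being higher, Ccl9 late, and Klf2 is called lasting with its highest 24 h values in the triangles.

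Of the lists, those of DNA replication and of mitosis held the most late lower genes (33 and 40). Pole2, a subunit of DNA polymerase epsilon, had 22.2 to 50.99 CPM (median 26.0) in dmPGE2 libraries and 16.8 to 28.6 CPM (median 22.4) in vehicle libraries at 1 h. The levels at 24 h were 8.61 to 29.4 CPM (median 17.4) in dmPGE2 libraries and 33.7 to 51.9 CPM (median 47.5) in vehicle libraries, where all 8 dmPGE2 libraries lay below all 8 vehicle libraries. Its fold change was 0.34 (SE 0.19, adjusted p = 0.266) at 1 h and -1.35 (SE 0.19, adjusted p = 7.88e-06) at 24 h, with a difference of -1.69 (SE 0.27, adjusted p = 1.62e-05), or -1.36 without libraries 5 to 7. Ccne1, the gene of cyclin E1, which starts replication, had a difference of -1.65 (SE 0.37, adjusted p = 0.00119). Of the 47 G1/S and replication genes tested, 2 were higher and 2 lower at 1 h, none was higher and 41 were lower at 24 h, and the difference was lower for 35; 33 were late lower. The medians were 0.22 at 1 h and -0.68 at 24 h. Without libraries 5 to 7 the difference was lower for 31 and 19 were lower at 24 h (median -0.40). Over all 14061 genes the difference was lower for 1645, and 1415 were lower at 24 h. Without libraries 5 to 7 these counts were 1192 and 453.

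Ccnb1, the gene of cyclin B1, which drives entry into mitosis, had 47.5 to 146 CPM (median 92.3) in dmPGE2 libraries and 31.6 to 100.7 CPM (median 57.4) in vehicle libraries at 1 h. Its 24 h range was 59.9 to 248 CPM (median 209.5) in dmPGE2 libraries and 284 to 542 CPM (median 412) in vehicle libraries. All dmPGE2 libraries lay below the vehicle range at 24 h. For Ccnb1 the fold change was 0.65 (SE 0.23, adjusted p = 0.0585) at 1 h and -1.13 (SE 0.24, adjusted p = 7.95e-04) at 24 h, and the difference -1.78 (SE 0.33, adjusted p = 1.75e-04). Over time Ccnb1 rose by 0.99 in dmPGE2 mice and by 2.77 in vehicle mice. Leaving out dmPGE2 library 1 or 2 of 1 h, vehicle library 3 of 1 h or dmPGE2 library 7 of 24 h made its 1 h call pass and Ccnb1 reversed, with differences between -1.93 and -1.65 over all 32 such fits. The 120 bases before its start (RefSeq, build GRCm38.p6, chr13:100786487-100786606, minus strand, chromosome 13) are shown for the pair of CCAAT boxes, the motif of NF-Y, in capitals.
Ccnb1: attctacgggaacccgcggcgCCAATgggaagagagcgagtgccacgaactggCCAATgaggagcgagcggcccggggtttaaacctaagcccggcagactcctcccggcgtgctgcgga

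Of the 57 G2/M and mitosis genes tested, 1 was higher at 1 h, none was higher and 50 were lower at 24 h, and the difference was lower for 43; 40 were late lower and Plk1 was reversed. The medians were 0.20 at 1 h and -0.78 at 24 h. The genes rose between the times by a median of 0.17 in dmPGE2 mice and 1.22 in vehicle mice. With libraries 5 to 7 left out the difference was lower for 27 and 23 were lower at 24 h (median -0.64). Over all 14061 genes the difference was lower for 1645, and 1415 were lower at 24 h. With libraries 5 to 7 left out these counts were 1192 and 453. Per library the list's mean was 5.20 to 6.39 log2 CPM in dmPGE2 mice and 6.49 to 6.98 in vehicle mice at 24 h, with no overlap, and 4.94 to 6.35 in dmPGE2 mice and 4.76 to 6.01 in vehicle mice at 1 h, with overlap. For the G1/S list the means were 5.39 to 6.70 in dmPGE2 mice and 6.71 to 7.00 in vehicle mice at 24 h. In bulk libraries fewer cycling cells and less RNA of these genes per cell cannot be told apart.

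Promoters were searched for motifs of cell cycle genes. The CHR motif TTTGAA was in 12.1% of the promoters of all genes tested, 16.4% of those of late lower genes and 74.5% of those of the G2/M list. CCAAT was in 37.2% of all promoters, 47% of those of late lower genes and 76.5% of those of the G2/M list, and in 57.8% of the 45 promoters of lasting lower genes. The E2F motifs TTTCCCGC or TTTGGCGC were in 2.75% of all promoters, 5.46% of those of late lower genes and 27.3% of those of the G1/S list. They were also in 11.1% of the 45 promoters of lasting lower genes (5 promoters), 8.89% of the 135 of genes that reversed after being lower at 1 h and 6.61% of the 121 of genes that reversed after being higher at 1 h, so late lower genes did not hold the highest share. Both strands were searched from 250 bases before to 50 after each RefSeq start (build GRCm38.p6), 10662 of the 14061 genes had a promoter in the table, and a match of letters is a description, not a bound site.

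Genes of the respiratory chain were lower late as well. Of the 45 oxidative phosphorylation genes tested, 7 were higher at 1 h, 28 were lower at 24 h, and the difference was lower for 39; 26 were late lower, 5 lost higher and 2 reversed. The effects were small, with medians of 0.18 at 1 h and -0.26 at 24 h. Leaving out libraries 5 to 7, the difference was lower for 25 and 6 were lower at 24 h. Over all 14061 genes the difference was lower for 1645, and 1415 were lower at 24 h. In the fit that left out libraries 5 to 7 these counts were 1192 and 453. Cox6a1, a subunit of cytochrome c oxidase, had 0.22 at 1 h and -0.51 at 24 h (difference -0.73 (SE 0.15, adjusted p = 6.22e-04)). The reversed members Ndufb9 of complex I (0.22 and -0.27) and Sdhb of complex II (0.29 and -0.26) were lost genes without libraries 5 to 7, and the class of Ndufb9 changed in 14 of 32 fits that left out 1 library. Atp5e, a subunit of ATP synthase, had a called difference of -0.77 (SE 0.20) with no call at either time; 12 of 32 fits that left out 1 library added a call at one or both times.

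Late lower genes with large 24 h effects also came from outside the cell cycle and respiratory lists. Ptn, which encodes the growth factor pleiotrophin, had 1.19 to 2.60 CPM (median 2.17) in dmPGE2 libraries and 4.97 to 10.8 CPM (median 6.99) in vehicle libraries at 24 h, with no overlap, and a difference of -1.96 (SE 0.32, adjusted p = 2.21e-05). Its fold change at 24 h was -1.78 with all libraries and -1.74 without libraries 5 to 7.

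Pf4, a chemokine of platelets and megakaryocytes, had 22.1 to 171 CPM (median 71.6) in dmPGE2 libraries and 147 to 657 CPM (median 233) in vehicle libraries at 24 h, where 6 of 8 dmPGE2 libraries lay below the vehicle range, and a difference of -1.92 (SE 0.50, adjusted p = 0.00514). F2rl2, a thrombin receptor gene, had 1.90 to 41.4 CPM (median 16.1) in dmPGE2 libraries and 32 to 103 CPM (median 59.1) in vehicle libraries at 24 h and a difference of -2.44 (SE 0.50, adjusted p = 5.33e-04). Of these dmPGE2 libraries, 5 to 7 had 1.90 to 23.0 CPM of F2rl2 and the other 5 had 14.6 to 41.4 CPM. Beside these 2 genes and Gp5, the summed level of 12 megakaryocyte markers, which include Pf4 and Gp5, was 570.4 to 1721 CPM (median 759) in dmPGE2 libraries and 992 to 1968 (median 1118) in vehicle libraries at 24 h. At 1 h the sums were 538 to 1044 (median 667) in dmPGE2 libraries and 392.5 to 691 (median 492) in vehicle libraries. The difference was lower for 5 of the 11 markers tested and higher for none, beside 11.7% lower and 11.9% higher over all genes. The part of megakaryocyte-lineage cells in these results was not tested. Ifit1bl1, an interferon-induced gene with close paralogs, had -1.87 (SE 0.39) at 24 h, and reads shared with its paralogs may enter its count.

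The late higher genes with the largest 24 h fold changes were Pdcd1, Ccl9, S100a9, S100a8 and Il10ra. Ccl9, a chemokine gene of myeloid cells, had 2.11 to 14.4 CPM (median 8.49) in dmPGE2 libraries and 4.04 to 23.0 CPM (median 8.71) in vehicle libraries at 1 h. The 24 h levels were 15.0 to 213 CPM (median 36.1) in dmPGE2 libraries and 1.00 to 16.2 CPM (median 4.11) in vehicle libraries. At 1 h 7 of 8 dmPGE2 libraries lay inside the vehicle range, while at 24 h 7 of 8 dmPGE2 libraries lay above the vehicle range. The fold change was -0.17 (SE 0.53, adjusted p = 0.903) at 1 h and 3.68 (SE 0.58, adjusted p = 3.58e-05) at 24 h, with a difference of 3.84 (SE 0.77, adjusted p = 4.12e-04), or 2.48 (adjusted p = 0.0102) without libraries 5 to 7. Trim47, a ubiquitin ligase gene expressed in HSC, had 227 to 768 CPM (median 352) in dmPGE2 libraries and 154 to 222 CPM (median 186) in vehicle libraries at 24 h, with no overlap, and a difference of 1.503 (SE 0.26, adjusted p = 4.49e-05), or 0.95 without the 3 libraries. Ifitm1, an interferon-induced membrane protein gene, had a 24 h fold change of 1.27 (SE 0.16, adjusted p = 9.54e-07) and a difference of 1.09 (SE 0.22), and was late also without them.

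S100a8 and S100a9, which encode the calprotectin subunits of neutrophils, varied widely within groups. S100a9 had 6.07 to 96.5 CPM (median 36.6) in dmPGE2 libraries and 0.922 to 88.3 CPM (median 29.0) in vehicle libraries at 1 h. Its values at 24 h were 0.963 to 211 CPM (median 30.2) in dmPGE2 libraries and 0.628 to 18.7 CPM (median 3.83) in vehicle libraries, where 5 of 8 dmPGE2 libraries lay above the vehicle range. Its difference was 3.19 (SE 1.13, adjusted p = 0.0378), and S100a8 had 3.17 (SE 1.12, adjusted p = 0.0355). The call was lost in 11 of 32 fits that left out 1 library for S100a9 (2.55 to 3.81) and in 8 of 32 for S100a8 (2.61 to 3.91). The lowest differences, 2.55 and 2.61, came without dmPGE2 library 3 of 24 h, and the highest, 3.81 and 3.91, without vehicle library 8 of 24 h. Beside them, 14 neutrophil markers summed to 284 to 973 CPM (median 496) in dmPGE2 libraries and 87.6 to 604 (median 109) in vehicle libraries at 24 h. At 1 h they summed to 291 to 871 (median 537) in dmPGE2 libraries and 122 to 1586 (median 581) in vehicle libraries. Of the granule genes, Elane had 0.275 to 7.80 CPM (median 2.74) in dmPGE2 libraries and 0 to 21.9 CPM (median 0.459) in vehicle libraries at 24 h. Mpo had 0.296 to 137 CPM (median 11.4) in dmPGE2 libraries and 0.0456 to 267 CPM (median 5.44) in vehicle libraries, and for both genes all 8 dmPGE2 libraries lay inside the vehicle range. Prtn3, the gene of proteinase 3, had 207 to 352 CPM (median 252) in dmPGE2 libraries and 69.3 to 96.8 CPM (median 87.8) in vehicle libraries at 24 h, and these did not overlap. Mmp8, the gene of neutrophil collagenase, had 0 to 32.99 CPM (median 1.73) in dmPGE2 libraries and 0 to 0.156 CPM (median 0) in vehicle libraries, with 5 of 8 dmPGE2 libraries above the vehicle range. Of the 14 markers the difference was higher for 4 and lower for none, beside 11.9% higher and 11.7% lower over all genes. The part of neutrophil-lineage cells or their RNA was not tested.

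Il10ra and Pdcd1 rested on libraries 5 to 7. Il10ra, a chain of the interleukin 10 receptor, was at 46.2 to 149.8 CPM in libraries 5 to 7 and 3.605 to 11.1 CPM in the other 5 of the dmPGE2 mice at 24 h, beside 1.52 to 9.35 CPM (median 3.11) in vehicle libraries. Its difference was 4.11 (SE 0.83, adjusted p = 4.69e-04), 3.27 without library 5, and 1.69 (adjusted p = 0.0535) without libraries 5 to 7. Pdcd1, the gene of the checkpoint receptor PD-1, was at 51.9 to 506 CPM in libraries 5 to 7 and 0.717 to 5.67 CPM in the other 5 of the dmPGE2 mice at 24 h, beside 0 to 5.99 CPM (median 2.15) in vehicle libraries. Its difference was 3.40 (SE 1.24, adjusted p = 0.0432), 1.30 without library 5, and -1.06 (adjusted p = 0.449) without libraries 5 to 7, which is the opposite sign; it was called in 15 of 32 fits that left out 1 library.

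**Figure D5:**
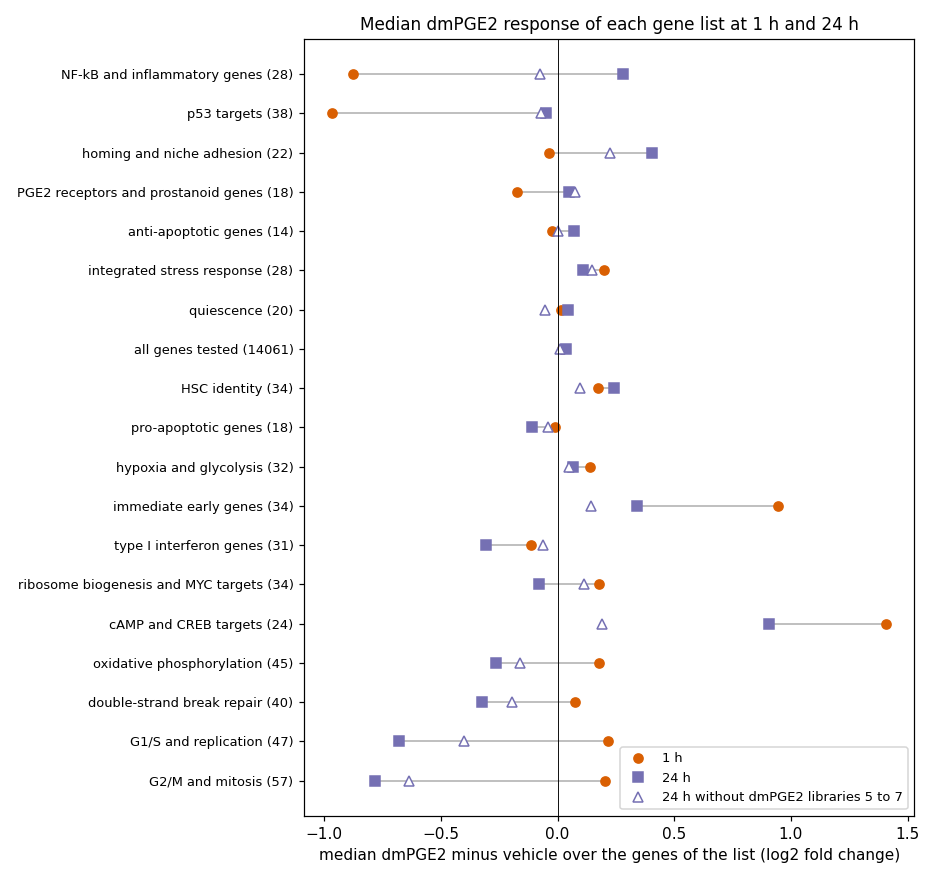
Median log2 fold change of dmPGE2 against vehicle over the genes of each list (horizontal axis) at 1 h, at 24 h and at 24 h without dmPGE2 libraries 5 to 7, lists ordered by the median difference, with the number of genes tested in brackets. The p53 list lies at -0.97 at 1 h and -0.05 at 24 h, the NF-kB list at -0.88 at 1 h and 0.28 at 24 h with all libraries, and the G2/M list lies at 0.20 at 1 h and -0.78 at 24 h; the median over all genes is 0.02 and 0.04.

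The other lists had members in both directions, beside 11.9% higher and 11.7% lower differences over all genes (7.84% and 8.48% in the fit without libraries 5 to 7). Of 34 HSC identity genes, the difference was higher for 4 and lower for 4 (1 and 5 without libraries 5 to 7). Gata2 was among 4 lost higher genes, Trim47 among 4 late higher genes, and Hoxa9, Erg and Tcf15 were lasting. Hoxa9 was lost without dmPGE2 library 5, 6 or 7 or vehicle library 4 of 24 h (24 h fold changes of 0.37 to 0.42), and Erg lost its 24 h call without dmPGE2 library 5 of 24 h (0.44). Of 28 genes of the integrated stress response, 7 were higher and 7 lower (6 and 2 without libraries 5 to 7), and of 32 hypoxia and glycolysis genes 4 were higher and 7 lower (1 and 5). Of 40 double-strand break repair genes, 1 was higher and 10 lower, with 9 late lower (1 and 4 without libraries 5 to 7). Type I interferon genes had 5 higher and 4 lower differences of 31, and 5 and 0 in the fit without libraries 5 to 7. Homing and niche adhesion genes had 5 and 1 of 22 (4 and 3 in that fit), and quiescence genes 7 and 2 of 20 (6 and 2). Ribosome biogenesis and MYC targets had 1 and 7 of 34 (2 and 1), anti-apoptotic genes 2 and 3 of 14 (2 and 2) and pro-apoptotic genes 5 and 4 of 18 (3 and 1).

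Examples show how mixed these lists were. Of the repair genes, Rad54l, a translocase of homologous recombination, had 0.31 at 1 h and -1.17 (SE 0.20) at 24 h, and was late also without libraries 5 to 7. Dna2, a nuclease that resects DNA ends, had a difference of -1.27 (SE 0.38, adjusted p = 0.0119). In dmPGE2 mice at 24 h Dna2 was at 2.40 to 14.7 CPM in libraries 5 to 7 and 20.8 to 50.3 CPM in the other 5. Cited2, a cAMP-induced regulator that HSC need, had -2.71 (SE 0.14, adjusted p = 3.80e-18) at 1 h and -0.03 (SE 0.13) at 24 h. Vegfa, a hypoxia and cAMP target, was lost after 1.83 (SE 0.22) at 1 h, with 0.27 (SE 0.22) at 24 h, and Egln3, an oxygen-sensing hydroxylase gene, had 2.34 and 0.48; without vehicle library 3 of 1 h the 24 h value of Egln3 was called, at a difference of -2.43. Tob1, an antiproliferative gene of quiescent lymphocytes, was lost after -2.31 at 1 h, while its relative Tob2 was lasting at 0.78 and 0.51, with a 24 h fold change of 0.32 that was not called without libraries 5 to 7.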

How the data were processed

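RNA of sorted HSC was made into 1 library per mouse with SMART-Seq v4 and Nextera XT, per the labels' protocols; these kits keep no strand and no molecular identifiers. The authors deposited whole-number read counts per gene for all libraries, merged into 1 table; STAR 2.5.2b, featureCounts of Subread 1.5.1 and the build mm10 are named in the submitters' processing notes. The sources used here name neither the annotation nor the treatment of multimapping reads. Columns were assigned to groups from their names, which leave out words shared by most groups, so part of the assignment is by elimination; 15 columns of vehicle mice that were not irradiated carry no time and were not used.

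Genes were filtered with edgeR's filterByExpr (count minimum 10), which kept 14061 of 24421, and scaled with TMM factors. edgeR 4.0.16 (limma 3.58.1, R 4.3.3) fitted a robust quasi-likelihood model to 39 libraries, the 32 compared and 7 of dmPGE2 mice that were not irradiated (common dispersion 0.128, 34 residual degrees of freedom). A fold change is dmPGE2 over vehicle on the log2 scale, the difference is the 24 h fold change minus the 1 h fold change, and the SE is the size of the effect over the root of its F statistic. CPM per library use TMM factors, means of classes and lists use log2 CPM with a prior count of 3, and marker sums use total counts before filtering. Alternatives included DESeq2 1.42.0, limma voom with sample quality weights, other filters and libraries left out.

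The text names genes with a mean of at least 2 log2 CPM: the 10 highest and 10 lowest called differences, the 5 largest of each class and direction, and of each list the 2 largest called differences and the lasting and reversed members; 102 genes met the rule and not all are described, and Fgd5, Elane, Mpo, Prtn3 and Mmp8 are named as markers. Ptger1, Ptger2 and Ptger3 are named as the other PGE2 receptors. The question, the lists and the rule were chosen with earlier results of these data known. The same test for the 24 h response minus the 1 h response was run on simulated counts with 13655 genes. It recovered 74 of 100 genes changed 2-fold and 95 of 100 changed 4-fold, and 13 of 182 calls were unchanged genes. The simulated counts were drawn independently, with no library that shifts many genes together, as some dmPGE2 libraries of 24 h did. These figures therefore do not give the recovery or the share of false calls in the real data. Libraries of 1 group differed far beyond counting noise (lowest chi-square per gene 18.1), so none was counted as a duplicate. Each library is 1 mouse, so p-values measure the spread between these mice; reads are not independent molecules.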

Additional observations from a re-analysis of the deposited data

Results flagged for a closer look

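The response at 24 h was tested against the response at 1 h in 1 model, and the difference was higher for 1668 genes and lower for 1645. Named genes whose fold changes were called at both times in opposite directions, with the log2 difference of the 24 h minus the 1 h response, were Hif3a (3.45), Icam1 (3.31), Sdc4 (3.13), Bcl3 (2.95), Efnb2 (2.62), Itgb3 (2.53), Tnfaip3 (2.13), Dnajb9 (1.75), Ptger4 (1.58), Csf1 (1.49), Ddit3 (1.44) and Btg1 (1.33), all lower at 1 h and higher at 24 h. Those higher at 1 h and lower at 24 h were Plk1 (-2.32), Fhl4 (-1.94), Gp5 (-1.94), Hnrnpdl (-1.87), Enkd1 (-1.55), Cdc45 (-1.36), Chaf1b (-0.81), Sdhb (-0.55) and Ndufb9 (-0.49).

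Among 60 sets of 8 library means of lists and classes examined for 1 library far from the rest of its group, 3 were found, where chance gives about 1 in 20. The cAMP and CREB targets averaged 5.77 log2 CPM in library 3 of irradiated vehicle mice at 1 h, and 4.32 to 4.91 in the other 7. The same targets averaged 2.49 in library 8 of irradiated vehicle mice at 24 h, and 3.11 to 3.41 in the other 7. The lost higher genes averaged 6.20 in library 7 of irradiated dmPGE2 mice at 1 h, and 6.03 to 6.10 in the other 7.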

How the results depend on the processing

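The counts as reported were 1668 higher and 1645 lower differences, 204 lasting, 939 lost, 1561 late and 280 reversed genes. DESeq2 size factors, the DESeq2 Wald test, no filter on low counts, a mean of at least 2 log2 CPM, a fit to the 32 irradiated libraries alone and the male mice of 24 h alone kept all 6 counts within 1.5 times, and limma voom with sample quality weights did so except for late genes (928). All these settings keep dmPGE2 libraries 5 to 7 of 24 h. Only voom weights whole libraries, and it gave libraries 5, 6 and 7 weights of 0.241, 0.503 and 0.395. The other settings do not test the dependence on these libraries. With male mice alone, library 8 is the only other dmPGE2 library of 24 h, and late genes numbered 2224. Fits with 1 sex at 24 h kept the 1 h libraries of both sexes. Of the 1561 late genes, 1244 were in the same class with male mice of 24 h and 237 with female mice. Of the 204 lasting and 1561 late genes, 82 and 798 were in the same class with voom. Without dmPGE2 libraries 5 to 7 of 24 h the counts were 1103 higher, 85 lasting, 493 late and 130 reversed, and without library 3 as well 1076 higher, 1082 lower, 52 lasting, 373 late and 96 reversed. With the female mice of 24 h alone they were 1018 higher, 884 lower, 48 lasting, 323 late and 62 reversed. The lost class held 1221, 1198 and 1051 genes in these 3 fits. At an adjusted p below 0.01 the counts were 866 higher, 892 lower, 69 lasting, 746 late, 559 lost and 81 reversed. Tested against a difference of 1.5-fold they were 262 higher, 111 lower, 13 lasting, 90 late, 154 lost and 1 reversed; these last 2 settings are stricter by construction, and for the others the cause was not tested.

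Leaving out each of the 32 libraries in turn gave 1456 to 1784 higher and 1414 to 1810 lower differences, 163 to 229 lasting, 785 to 1100 lost, 1175 to 1823 late and 207 to 339 reversed genes. Of 102 named genes, 2 changed the sign of a difference that was called in the reported or the alternative fit. One was Pdcd1 (-0.50 with voom, -1.06 without libraries 5 to 7, -1.23 without library 3 as well, -1.29 with female mice of 24 h). The other was Pde4b (-0.88 with voom, -0.88 without libraries 5 to 7, -0.86 without library 3 as well, -0.81 with female mice). Sign changes with no call in either fit were not counted. The uncalled difference of P2ry10, for example, ran from -1.10 to 0.33 when each library was left out in turn. Libraries of dmPGE2 and vehicle mice that share a column tag did not deviate together in every pair. At 1 h r was 0.07 to 0.35, and 5 of 8 libraries correlated best with the one of their own tag. At 24 h r was -0.01 to 0.08, and 3 of 8 did. The reported fit has no term for the tag. A fit with the tag (and sex at 24 h) as block gave 1498 higher, 1539 lower, 157 lasting, 1498 late, 823 lost and 221 reversed genes. In it the difference for Pdcd1 was -0.004. At the threshold, Mamdc2 was the last gene called (0.76, adjusted p = 0.04997) and Nhp2l1 the first not called (-0.39, adjusted p = 0.05002).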

Other observations

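Summed marker levels of other cell types that the gate could let through were compared at 24 h as values, with no test. Progenitor markers summed to 604 to 1080 CPM in dmPGE2 libraries and 357 to 725 CPM in vehicle libraries at 24 h, and erythroid markers to 206 to 464 CPM in dmPGE2 libraries and 198 to 267 CPM in vehicle libraries. Markers of T and NK cells summed to 81.6 to 152 CPM in dmPGE2 libraries and 124 to 226 CPM in vehicle libraries at 24 h. Endothelial markers summed to 510 to 558 CPM in dmPGE2 libraries 5 to 7, 291.5 to 345 CPM in the other 5 dmPGE2 libraries and 266 to 335 CPM in vehicle libraries. Stromal markers summed to 32 to 406.5 CPM in dmPGE2 libraries and 19.3 to 71.2 CPM in vehicle libraries, and mast cell and basophil markers to 6.39 to 84.5 CPM in dmPGE2 libraries and 2.26 to 28.3 CPM in vehicle libraries. The sums of monocyte and macrophage, B cell and dendritic cell markers overlapped between the groups as well. The genes of the HSC gate summed to 2392 to 3698 CPM in dmPGE2 libraries and 1674 to 2514 CPM in vehicle libraries at 24 h, and their difference between the times was called higher for 1 of 9 genes (0 of 9 without libraries 5 to 7) and lower for none, beside 11.9% higher over all genes.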
